A study of Mus musculus with 36 samples.

Results

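The matrix metalloproteinases and the tissue inhibitors that block them were followed across glial and perivascular cells of muscle through 10 genes: the secreted enzymes Mmp2, Mmp9 and Mmp3, the membrane-type enzymes Mmp14, Mmp15 and Mmp17, and the inhibitors Timp1, Timp2, Timp3 and Timp4. They were chosen by symbol from the 52636 genes of the count table, all 10 were found in it, and all 10 were among the 15330 genes that passed a filter on low counts. The mice carried 2 transgenes in every library compared here, S100β-GFP, with GFP under the S100b promoter, and NG2-dsRed, with dsRed under the promoter of Cspg4, the gene of the proteoglycan NG2. Cells of diaphragm, pectoralis, forelimb and hindlimb muscles of juveniles, P15 to P21 by the methods of the study, were sorted on their fluorescence into NG2DsRed+/S100GFP+ cells, which the study takes as perisynaptic Schwann cells (PSCs), S100GFP+ cells, taken as other Schwann cells, and NG2DsRed+ cells, which include pericytes. Counts were analysed for 9 PSC, 8 S100GFP+ and 10 NG2DsRed+ libraries of the 36 labelled, each from cells of 1 mouse, and each held between 5221655 and 9592875 counts. The labels give other ages, from P15 up to an age between P21 and P46. This upper age rises by 1 with each library number, from P21 for library 1 to P46 for library 26, and stays at P46 after it. The age of a single library is therefore uncertain. Levels are given as CPM, counts scaled to 1000000 per library after adjustment of library sizes.

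Matrix metalloproteinases are zinc-dependent enzymes that are made as inactive proenzymes and cut collagens, laminins, proteoglycans and proteins at the cell surface. Membrane-type members carry a transmembrane segment or a lipid anchor and act at the surface of the cell that makes them, whereas the others are secreted. TIMP proteins bind the active site of these enzymes, and TIMP2 has a further role, since a complex of MMP14 and TIMP2 holds pro-MMP2 at the membrane so that a free MMP14 molecule can cut it into its active form. At the neuromuscular junction, where PSCs cover the nerve terminal, MMP3 is known to cut agrin out of the synaptic basal lamina.

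The sorted populations differed in markers of other cells, which were summed as CPM over 8 genes per cell type. Schwann cell lineage markers summed to 2779 to 3569 in PSC libraries, 657 to 2016 in S100GFP+ libraries and 85.0 to 453 in NG2DsRed+ libraries. Within that list Sox10, the factor that defines the lineage, was at 379 to 703 CPM in PSCs and at 5.57 to 38.8 CPM in S100GFP+ cells. Fibroblast markers summed to 10933 to 23914 in S100GFP+ libraries, 1714 to 12321 in NG2DsRed+ libraries and 472 to 1762 in PSC libraries. Macrophage markers summed to 354 to 2412 in S100GFP+, 6.95 to 24.9 in NG2DsRed+ and 2.07 to 13.8 in PSC libraries, with Fcgr1 at 0 in every PSC library. The label of the S100GFP+ cells as Schwann cells therefore does not cover all of the RNA measured in them, and they are called by their fluorescence here. NG2DsRed+ libraries led in markers of pericytes and smooth muscle, at 6747 to 14851, and in those of endothelium, at 1514 to 3670. S100GFP+ libraries 14, 17 and 22 stood apart from the other 5 of their type, with counts on 412, 686 and 1047 olfactory receptor genes against 23 to 187 in the other libraries of the study, and with endothelial sums of 699 to 2796 against 41.9 to 133. The study itself kept fewer S100GFP+ replicates after its quality check than are analysed here, and the sources used here do not name those it set aside.

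The enzymes and inhibitors showed a separate profile in each population. PSCs held most of the membrane-type enzymes Mmp15 and Mmp17, which were above both other cell types in every library, and had almost no counts on Mmp3 and Mmp9. S100GFP+ cells held the highest Timp2, Mmp14 and Mmp2 and nearly all counts on Mmp3. NG2DsRed+ cells were the highest in Timp3, and the lowest in Mmp2 and Timp2. In a bulk sample, fewer cells that make a transcript and less of it per cell cannot be told apart, and this holds for every level given here.

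**Figure D1:**
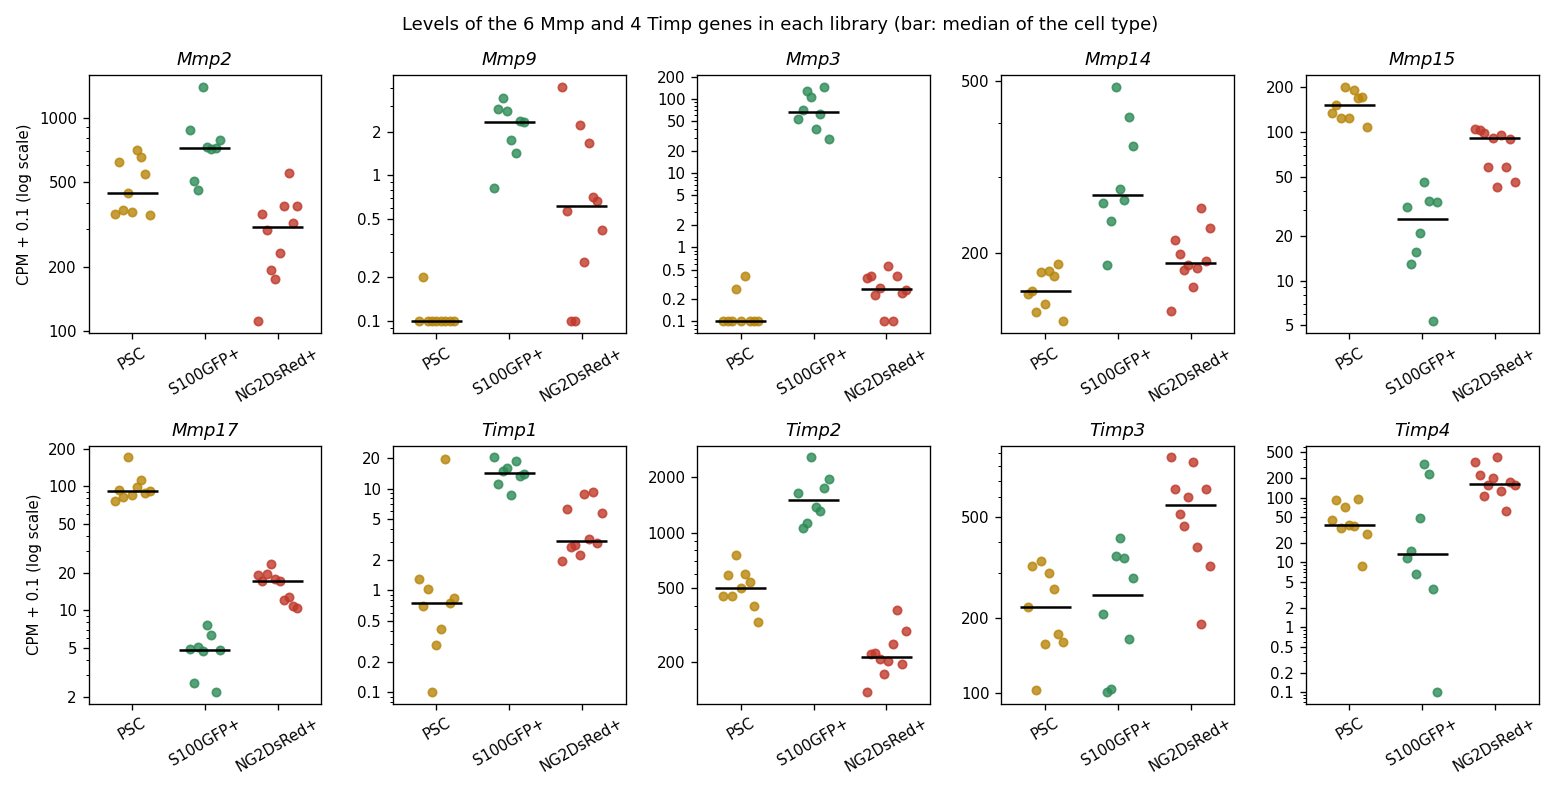
Each panel plots one gene, with a point per library in CPM plus an offset of 0.1 on a log axis and a bar at the median of the cell type, for 9 PSC, 8 S100GFP+ and 10 NG2DsRed+ libraries. Mmp15 and Mmp17 of PSCs lie above all other points, Mmp3 is near the offset outside S100GFP+ cells, and Timp4 of S100GFP+ cells is spread from 0 to 333 CPM.

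Between PSCs and S100GFP+ cells, 8 of the 10 genes passed an adjusted p of 0.05 in edgeR's quasi-likelihood test, 2 of them higher and 6 lower in PSCs. Of all genes tested 47.0% passed in this comparison, 22.9% higher and 24.1% lower, so that the share of genes higher in PSCs was near that of all genes. The median log2 fold change of the 10 genes was -0.81, beside 0.04 over all genes tested. Against NG2DsRed+ cells 4 genes were higher and 4 lower in PSCs, where 44.0% of all genes passed, 20.9% higher and 23.1% lower, and the median was -0.51 beside 0.02 over all genes. In a fit of only these cell types 2 genes were lower, since Mmp3 and Mmp9 then missed the filter. Mmp3 passed it through the S100GFP+ libraries alone and Mmp9 and Timp1 through those and NG2DsRed+ libraries, so that the counts and medians that hold them describe the 10 genes and support nothing further. Between the last pair 5 genes were higher and 3 lower in S100GFP+ than in NG2DsRed+ cells, where 33.3% of all genes passed, 18.1% higher and 15.2% lower, with a median of 0.88 beside -0.02. The libraries of the compared types did not overlap for 5 of the 10 genes between PSCs and S100GFP+ cells, for 2 between PSCs and NG2DsRed+ cells and for 3 between S100GFP+ and NG2DsRed+ cells, and the shares of all genes without overlap were 15.5%, 13.9% and 11.6%. The 3 comparisons share libraries and are not independent of each other.

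**Figure D2:**
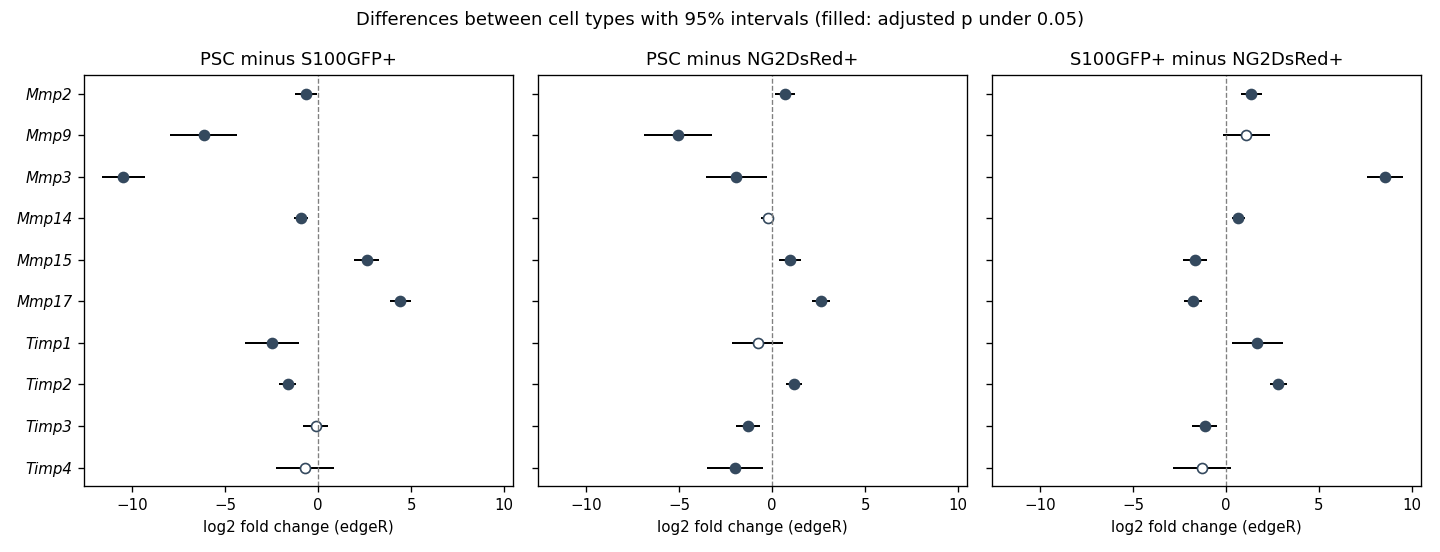
Log2 fold changes from edgeR (x axis, the first cell type named minus the second) with 95% intervals for the 10 genes in the 3 comparisons, filled where the adjusted p was under 0.05. Mmp3 spans from -10.47 between PSCs and S100GFP+ cells to 8.55 between S100GFP+ and NG2DsRed+ cells, and the Timp4 intervals are wide in all 3 panels.

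Sequences in front of a gene were taken for 7 of the 10 genes from RefSeq (GRCm38.p6), as the 250 bases before the annotated start. They were searched on both strands for the AP-1 motif TGANTCA, bound by Fos and Jun proteins, and for the GC box GGGCGG, bound by Sp1-type factors, which do not overlap in any of the windows shown. Shown are Mmp3, with the largest fold change of any of the 3 comparisons among the 10 genes, and Mmp15, which was highest in PSCs. Capitals mark the AP-1 match in the first and the GC box, read on the other strand, in the second.
Mmp3, chr9:7445572-7445821, plus strand: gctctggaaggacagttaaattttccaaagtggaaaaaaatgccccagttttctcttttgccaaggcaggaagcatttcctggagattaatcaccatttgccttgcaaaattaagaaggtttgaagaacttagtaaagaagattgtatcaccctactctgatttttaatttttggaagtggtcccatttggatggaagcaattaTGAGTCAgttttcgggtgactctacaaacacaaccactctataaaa
Mmp15, chr8:95352046-95352295, plus strand: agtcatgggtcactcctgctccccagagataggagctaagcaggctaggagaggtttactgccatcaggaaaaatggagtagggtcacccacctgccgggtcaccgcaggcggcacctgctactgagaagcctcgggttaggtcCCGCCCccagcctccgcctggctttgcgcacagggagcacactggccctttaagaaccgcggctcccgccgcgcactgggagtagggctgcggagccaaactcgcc
The AP-1 letters began 46 bases before the start of Mmp3. They were in 1 of the 7 windows of the 10 genes and in 6.75% of the 32851 windows of this length in the table. The GC box was in 5 of the 7, in Mmp14, Mmp15, Timp1, Timp2 and Timp3, and in 32.7% of all windows. Of other Mmp genes that were highest in S100GFP+ cells, Mmp27 had no AP-1 match, Mmp23 had none at either of its 2 starts, and Mmp12 had none at its first start and a match 44 bases before its second. The last bases of the Mmp15 window lie in the first exon of the GENCODE model. The Timp2 window lies wholly within the GENCODE gene, and the Timp3 window reaches past the start of its gene, with the GC box inside it. These matches describe letters and say nothing about which factors were bound.

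Mmp2, a secreted gelatinase that cuts denatured collagens and type IV collagen (chr8:92827291-92853420, plus strand, GRCm38), lay between 349 and 703 CPM (median 446) in PSCs, between 458 and 1399 (median 725) in S100GFP+ cells and between 111 and 553 (median 308) in NG2DsRed+ cells. The types overlapped in each comparison, and 5 of 9 PSC libraries were below every S100GFP+ library. Mmp2 was lower in PSCs than in S100GFP+ cells (log2 fold change -0.66 ± 0.26, SE, adjusted p = 0.035) and higher than in NG2DsRed+ cells (0.70 ± 0.24, adjusted p = 0.020). The first call was lost without S100GFP+ libraries 14, 17 and 22 (-0.41, adjusted p = 0.26), with a term for the share taken by Lars2, Gm23935 and Gm15564, which was 3.64% to 40.0% of a library (-0.51, adjusted p = 0.12), and without each of 7 single libraries (adjusted p up to 0.12), and over all 34 fits its adjusted p was between 0.020 and 0.26. Library 14, which held the highest Mmp2 and the highest fibroblast sum of the S100GFP+ libraries, was among these 7, and the part of fibroblast RNA in the level was not tested. The difference of 1.36 ± 0.25 between S100GFP+ and NG2DsRed+ cells (adjusted p = 7.5e-05) kept its call in every fit run.

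Mmp9, the other gelatinase, known from neutrophils and macrophages (chr2:164940780-164955850, plus strand), was near the limit of detection in all populations. PSCs had 1 count in all, in library 6, and 0 in the other 8 libraries. S100GFP+ libraries ranged from 0.73 to 3.32 CPM (median 2.24), on 104 counts, and NG2DsRed+ libraries from 0 to 3.97 (median 0.52), on 66 counts. Every PSC library was thus below every S100GFP+ library, whereas 2 NG2DsRed+ libraries were also at 0. The ratio of pooled levels was 170 for S100GFP+ cells over PSCs (95% exact interval of the counts 29.8 to 6773) and 78.2 for NG2DsRed+ cells over PSCs (13.6 to 3136), and both differences passed the test (adjusted p = 7.1e-07 and 1.6e-05). Mmp9 passed the filter only through S100GFP+ and NG2DsRed+ libraries, so that no support is drawn from its being lower in PSCs. S100GFP+ and NG2DsRed+ cells did not pass (1.10, 95% interval -0.09 to 2.29, adjusted p = 0.15). NG2DsRed+ library 2, with the highest Mmp9 of its type, also had the highest neutrophil marker sum, 323 CPM against 0.13 to 49.7 in the other NG2DsRed+ libraries, and the part of neutrophil RNA was not tested. Neutrophil markers were at or below 5.68 CPM in S100GFP+ libraries.

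Mmp3, a stromelysin that cuts proteoglycans, laminin and agrin (chr9:7445822-7455975, plus strand), had the largest fold changes of the 10 genes between S100GFP+ cells and each of the other types. S100GFP+ libraries ranged from 29.1 to 147 CPM (median 66.8), on 3986 counts. PSCs had 3 counts in all, with 7 of 9 libraries at 0, and NG2DsRed+ cells had 13 counts, with 2 of 10 libraries at 0 and the highest at 0.46 CPM. Every S100GFP+ library was above every other library. The ratio of pooled levels between S100GFP+ cells and PSCs was 2170 (95% exact interval of the counts 742 to 10528), and in edgeR the log2 fold change of PSCs minus S100GFP+ cells was -10.47 ± 0.53 (adjusted p = 3.8e-15) and that of S100GFP+ minus NG2DsRed+ cells 8.55 ± 0.44 (adjusted p = 7.1e-14). The further difference between PSCs and NG2DsRed+ cells rested on 3 against 13 counts (pooled ratio 5.14, 1.41 to 28.1) and was at the threshold (adjusted p = 0.046). It was lost without each of 14 single libraries (adjusted p up to 0.093), with size factors of DESeq2 (0.051), without the filter (0.058) and in limma-voom with sample quality weights (0.22), and was as low as 0.0077 in another of the 33 fits. In S100GFP+ libraries 14, 17 and 22 Mmp3 was at 38.8 to 106 CPM, within the 29.1 to 147 of the other 5.

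Mmp3 lies in a cluster of 10 Mmp genes between positions 7272514 and 7699585 of chromosome 9, of which 3 passed the filter. S100GFP+ libraries held the most counts of the 3 populations on 9 of the 10, the exception being Mmp8, a neutrophil collagenase, with 43 counts in NG2DsRed+, 23 in S100GFP+ and 9 in PSC libraries. Some of the 9 rested on few S100GFP+ counts, 1 on Mmp7, 5 on Mmp1a and 12 on Mmp20. Without the filter, 44705 genes leaned the same way. Their median log2 fold change was -0.97 for PSCs against S100GFP+ cells and 0.78 for S100GFP+ against NG2DsRed+ cells. The share of all genes with most counts in S100GFP+ libraries was not computed, so that the 9 of 10 is a description only. Mmp12, a macrophage elastase, had 9654 counts in S100GFP+, 30 in NG2DsRed+ and 17 in PSC libraries. Mmp13, a collagenase of cartilage and bone, had 452, 5 and 11 in the same order, all 11 of the PSC counts in library 4. Mmp27 had 342, 2 and 3 counts, and Mmp10, a stromelysin, 23, 0 and 0. Mmp3, Mmp12 and Mmp27 passed the filter only through their counts in S100GFP+ libraries, so that no support is drawn from their being lower in the other types. Mmp12 was at 52.8 to 78.5 CPM in S100GFP+ libraries 14, 17 and 22 and at 156 to 420 CPM in the other 5, and the macrophage marker sums moved the same way, 354 to 767 against 1474 to 2412, although the part of macrophage RNA was not tested. Mmp12 and Mmp1b overlap by 157 exon bases on opposite strands, and whether counting used the strand is not known from the sources here.

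**Figure D3:**
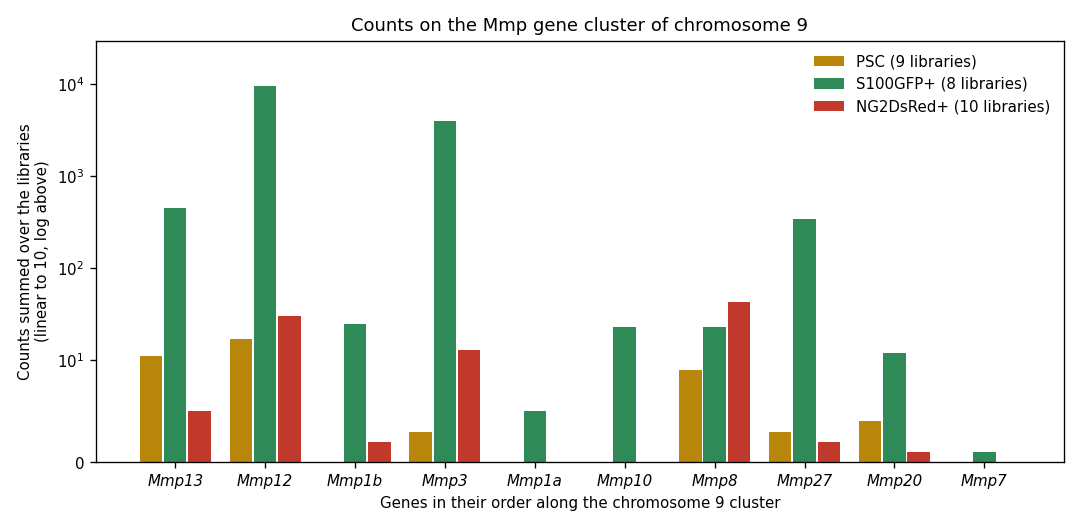
Counts summed over 9 PSC, 8 S100GFP+ and 10 NG2DsRed+ libraries (y axis, linear up to 10 and logarithmic above) for the 10 Mmp genes of the chromosome 9 cluster in their order along the chromosome. S100GFP+ libraries hold the tallest bar at every gene except Mmp8, and PSC libraries hold none on Mmp1b, Mmp1a, Mmp10 and Mmp7.

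Mmp14, the membrane-type enzyme that activates pro-MMP2 and cuts fibrillar collagens (chr14:54431612-54445364, plus strand), was present in all libraries with little spread in PSCs, where it ranged from 139 to 188 CPM (median 163). It ranged from 188 to 486 (median 273) in S100GFP+ cells and from 147 to 254 (median 189) in NG2DsRed+ cells. Of 9 PSC libraries 8 were below every S100GFP+ library, and the PSC and NG2DsRed+ ranges overlapped. Mmp14 was lower in PSCs than in S100GFP+ cells (-0.91 ± 0.16, adjusted p = 1.5e-05) and higher in S100GFP+ than in NG2DsRed+ cells (0.67 ± 0.15, adjusted p = 0.00080). PSCs and NG2DsRed+ cells did not pass (-0.24, 95% interval -0.54 to 0.06, adjusted p = 0.19). None of these calls changed in any fit run.

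Mmp15, a membrane-type enzyme with a transmembrane segment (chr8:95352268-95375080, plus strand), ranged from 109 to 202 CPM (median 151) in PSCs. It ranged from 42.6 to 105 (median 90.5) in NG2DsRed+ cells and from 5.23 to 46.1 (median 26.1) in S100GFP+ cells. Every PSC library was above every library of the other types, and 7 of 8 S100GFP+ libraries were below every NG2DsRed+ library. The differences were 2.62 ± 0.30 for PSCs against S100GFP+ cells (adjusted p = 1.8e-08), 0.96 ± 0.26 for PSCs against NG2DsRed+ cells (adjusted p = 0.0035) and -1.66 ± 0.28 for S100GFP+ against NG2DsRed+ cells (adjusted p = 2.7e-05). The order PSC, NG2DsRed+, S100GFP+ held for each neighbouring pair in every fit run.

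Mmp17, which is held at the membrane by a lipid (GPI) anchor (chr5:129584169-129611099, plus strand), followed the same order with wider gaps. Its range was 75.9 to 170 CPM (median 91.5) in PSCs, 10.4 to 23.3 (median 17.1) in NG2DsRed+ cells and 2.09 to 7.57 (median 4.73) in S100GFP+ cells. No range overlapped another. PSCs were higher by 4.42 ± 0.24 than S100GFP+ cells (adjusted p = 1.9e-14) and by 2.64 ± 0.20 than NG2DsRed+ cells (adjusted p = 9.8e-12), and S100GFP+ cells were lower than NG2DsRed+ cells (-1.78 ± 0.22, adjusted p = 2.0e-07). Leaving out single libraries moved the first value between 4.30 and 4.54, also without library 18, which was the highest PSC library.

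Timp1, an inhibitor of most secreted matrix metalloproteinases (chrX:20870166-20874735, plus strand), was low in PSCs apart from library 31. That library was at 19.3 CPM, on 135 of the 181 counts in PSCs, and the other 8 were between 0 and 1.18 CPM. S100GFP+ libraries ranged from 8.51 to 20.2 (median 14.2), and NG2DsRed+ libraries from 1.84 to 9.13 (median 2.97). All PSC libraries but library 31 were below every library of both other types. In library 31 the sum of tendon and cartilage markers was 4346 CPM against 10.9 to 117 in the other PSC libraries, and its part in the Timp1 level was not tested. With library 31, Timp1 was lower in PSCs than in S100GFP+ cells (-2.46 ± 0.68, adjusted p = 0.0038) and did not pass against NG2DsRed+ cells (-0.77, 95% interval -2.09 to 0.55, adjusted p = 0.35). Without it the values were -4.54 (adjusted p = 1.6e-09) and -2.85 (adjusted p = 2.3e-06), so that the call against NG2DsRed+ cells turned on this library, and its adjusted p reached 0.53 among the 34 fits. Timp1 passed the filter only with its S100GFP+ and NG2DsRed+ libraries, so that no support is drawn from its being lower in PSCs. The difference between S100GFP+ and NG2DsRed+ cells (1.69 ± 0.64, adjusted p = 0.043) was lost without each of 13 single libraries (adjusted p up to 0.074) and without S100GFP+ libraries 14, 17 and 22 (0.091) and with a term for the share of Lars2, Gm23935 and Gm15564 (0.059), with 6.0e-07 as the lowest of 34 fits.

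Timp2, which blocks the enzymes and takes part in the activation of pro-MMP2 (chr11:118301069-118355740, minus strand), ranged from 1053 to 2560 CPM (median 1510) in S100GFP+ cells. It ranged from 328 to 752 (median 499) in PSCs and from 136 to 382 (median 212) in NG2DsRed+ cells. S100GFP+ libraries were above all others, and 8 of 9 PSC libraries were above every NG2DsRed+ library. PSCs were lower than S100GFP+ cells (-1.64 ± 0.20, adjusted p = 9.9e-08) and higher than NG2DsRed+ cells (1.17 ± 0.19, adjusted p = 1.0e-05), and S100GFP+ cells exceeded NG2DsRed+ cells by 2.81 ± 0.20 (adjusted p = 1.0e-11). These 3 calls were the same in every fit run. Cep295nl lies in an intron of Timp2 with no shared exon base.

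Timp3, which stays bound to the matrix and also blocks ADAM proteases (chr10:86300372-86349506, plus strand), ranged from 189 to 866 CPM (median 561) in NG2DsRed+ cells. PSCs ranged from 103 to 336 (median 220) and S100GFP+ cells from 101 to 414 (median 246). S100GFP+ libraries 14, 17 and 22 were at 346 to 414 CPM and the other 5 at 101 to 287, and the endothelial sums, 699 to 2796 against 41.9 to 133, moved the same way, although their part in the Timp3 level was not tested. The PSC and S100GFP+ ranges covered each other, and 4 of 9 PSC and 3 of 8 S100GFP+ libraries were below every NG2DsRed+ library. Timp3 was lower than in NG2DsRed+ cells both in PSCs (-1.28 ± 0.29, adjusted p = 0.00066) and in S100GFP+ cells (-1.15 ± 0.30, adjusted p = 0.0036). PSCs and S100GFP+ cells did not pass (-0.13, 95% interval -0.75 to 0.49, adjusted p = 0.75), and the value was 0.43 (adjusted p = 0.29) without libraries 14, 17 and 22. Timp3 lies within Syn3, a synapsin gene on the opposite strand, and 1733 of its exon bases (21.3%) are also exon of Syn3, which was at 0.87 to 9.55 CPM over all libraries and passed in none of the comparisons.

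Timp4, an inhibitor found at high levels in heart and vessels (chr6:115241892-115252205, minus strand), was unevenly spread within S100GFP+ cells. It ranged from 61.6 to 417 CPM (median 165) in NG2DsRed+ cells and from 8.82 to 94.0 (median 38.4) in PSCs. In S100GFP+ cells libraries 14, 17 and 22 were at 48.9, 333 and 231 CPM, whereas the other 5 were between 0 and 15.0. PSCs were lower than NG2DsRed+ cells (-1.99 ± 0.72, adjusted p = 0.025), and 6 of 9 were below every NG2DsRed+ library. This call was lost with a term for the share of Lars2, Gm23935 and Gm15564 (-1.48, adjusted p = 0.11). PSCs against S100GFP+ cells did not pass (-0.70, 95% interval -2.19 to 0.78, adjusted p = 0.45), nor did S100GFP+ against NG2DsRed+ cells (-1.29, 95% interval -2.78 to 0.21, adjusted p = 0.19). Without libraries 14, 17 and 22 Timp4 was 2.75 higher in PSCs than in S100GFP+ cells (adjusted p = 0.00056) and lower in S100GFP+ than in NG2DsRed+ cells (-4.72, adjusted p = 2.1e-06), so that these libraries set direction and call. Over all 34 fits the adjusted p of these comparisons reached 0.91 and 0.29. The endothelial marker sum was 699 to 2796 in them and 41.9 to 133 in the other 5, and 1514 to 3670 in NG2DsRed+ libraries, but the part of endothelial RNA in the Timp4 level was not tested. Timp4 lies within Syn2 on the opposite strand with 90 shared exon bases (1.53%), and Syn2 had 606 counts in all against 20280 on Timp4.

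Timp1, Timp3 and Timp4 are thus nested in synapsin genes, whose products coat synaptic vesicles. Syn1, which surrounds Timp1 without a shared exon base, ranged from 1.48 to 6.88 CPM in S100GFP+ cells, from 0 to 0.94 in PSCs and from 0 to 1.75 in NG2DsRed+ cells. It was lower in PSCs than in S100GFP+ cells (-3.79, adjusted p = 3.7e-05) and higher in S100GFP+ than in NG2DsRed+ cells (3.48, adjusted p = 0.00010), the same directions as Timp1. Syn2 was lower in PSCs than in NG2DsRed+ cells (-2.26, adjusted p = 0.0043), the same direction as Timp4. Syn1 passed the filter mostly through its S100GFP+ libraries and Syn2 through its NG2DsRed+ libraries, so that no support is drawn from these shared directions. Without knowledge of strand in counting, reads of intron RNA of one gene and of the other gene on these stretches cannot be told apart.

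Levels were compared between genes per kilobase of exon, as RPKM. Mmp2 was the first of the 6 enzymes in each cell type, at 145 ± 42.6 RPKM (SD) in PSCs, 229 ± 85.5 in S100GFP+ cells and 89.2 ± 38.3 in NG2DsRed+ cells, which was 67.1%, 69.2% and 64.0% of the sum of the 6 means. The second place differed. In PSCs Mmp15 (28.3 ± 6.07) and Mmp14 (27.7 ± 2.92) were within 1 SD of each other and were followed by Mmp17 (15.0 ± 4.33). In S100GFP+ cells Mmp14 (52.1 ± 16.7) and Mmp3 (44.2 ± 23.8) followed Mmp2, also within their spread, and in NG2DsRed+ cells Mmp14 (32.8 ± 5.13) and then Mmp15 (14.6 ± 4.57). Among the inhibitors Timp2 led in PSCs at 131 ± 32.1 RPKM and in S100GFP+ cells at 410 ± 128, with 77.1% and 87.2% of the 4 means, whereas in NG2DsRed+ cells Timp3 (67.1 ± 26.5) and Timp2 (58.4 ± 17.6) were within their spread of each other.

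The summed RPKM of the 4 inhibitors divided by that of the 6 enzymes ranged from 0.534 to 1.09 in PSC libraries, with a median of 0.801, and from 1.27 to 1.75 in S100GFP+ libraries, with a median of 1.35. These ranges did not overlap. NG2DsRed+ libraries spanned both, from 0.646 to 2.52 (median 1.11). The sums leave out all other Mmp genes. Of those, Mmp23 and Mmp12 had means of 50.0 and 27.5 RPKM in S100GFP+ cells, and of 0.226 and 0.0417 in PSCs. Mmp16 went the other way, at 1.03 in S100GFP+ cells and 7.45 in PSCs. A ratio that counts these genes was not computed, so that the separation is shown only for the 6 enzymes listed. The ratio is a description of RNA levels, was not tested, and says nothing of protein or activity.

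**Figure D4:**
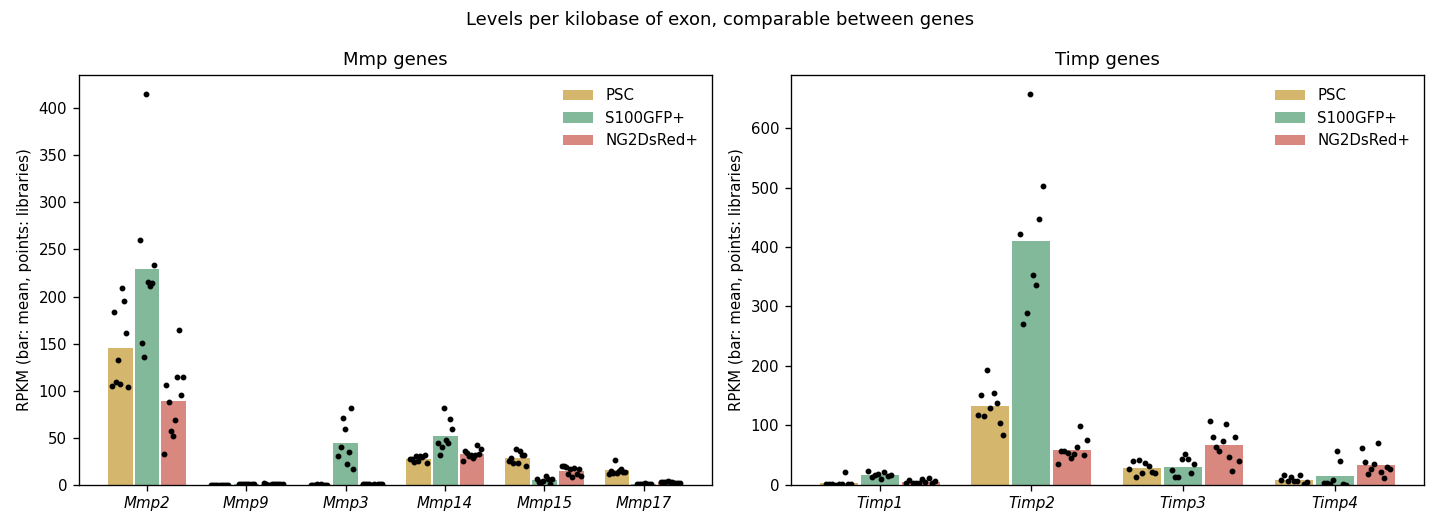
Levels per kilobase of exon (y axis, RPKM on a linear scale from 0) of the 6 enzymes and the 4 inhibitors, with bars at the mean of a cell type and a point per library. Mmp2 and Timp2 are the tallest bars in PSCs and S100GFP+ cells, and in NG2DsRed+ cells the bars of Timp3 and Timp2 are close, at 67.1 and 58.4 RPKM.

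The products of Mmp14, Timp2 and Mmp2 form the complex in which pro-MMP2 is cut, and their levels were compared across libraries within each cell type, as 9 correlations of log2 CPM with two-sided permutation tests adjusted over the 9. Mmp14 and Timp2 moved together in S100GFP+ cells (Pearson r = 0.92, exact permutation p = 0.0014, adjusted p = 0.0030, Spearman rho = 0.90, exact permutation p = 0.0046, adjusted p = 0.021, n = 8) and in NG2DsRed+ cells (r = 0.89, permutation p = 0.0013, adjusted p = 0.0030, rho = 0.72, permutation p = 0.023, adjusted p = 0.038, n = 10). In PSCs they did not pass (r = 0.55, exact permutation p = 0.12, adjusted p = 0.14, rho = 0.48, exact permutation p = 0.19, adjusted p = 0.19, n = 9). Mmp2 and Timp2 gave r = 0.92 in S100GFP+ cells (exact permutation p = 0.0017, adjusted p = 0.0030, rho = 0.86, exact permutation p = 0.011, adjusted p = 0.032, n = 8), r = 0.91 in NG2DsRed+ cells (permutation p = 0.00036, adjusted p = 0.0030, rho = 0.88, permutation p = 0.0017, adjusted p = 0.015, n = 10) and r = 0.47 in PSCs (exact permutation p = 0.20, adjusted p = 0.20, rho = 0.62, exact permutation p = 0.086, adjusted p = 0.096, n = 9). That r passed in S100GFP+ and NG2DsRed+ cells and not in PSCs does not show that the cell types differ, which was not tested.

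Mmp14 and Mmp2 passed on r in all 3 populations. The values were r = 0.73 in PSCs (exact permutation p = 0.032, adjusted p = 0.042, rho = 0.75, exact permutation p = 0.025, adjusted p = 0.038, n = 9), r = 0.78 in S100GFP+ cells (exact permutation p = 0.021, adjusted p = 0.032, rho = 0.67, exact permutation p = 0.083, adjusted p = 0.096, n = 8) and r = 0.86 in NG2DsRed+ cells (permutation p = 0.0016, adjusted p = 0.0030, rho = 0.73, permutation p = 0.020, adjusted p = 0.038, n = 10). In PSCs the adjusted p was 0.062 with the size factors of DESeq2. Without the 2 libraries farthest from the median of the x axis the 9 r values stayed above 0, between 0.38 for Mmp2 and Timp2 in PSCs and 0.89 for Mmp14 and Timp2 in S100GFP+ cells. In NG2DsRed+ cells this took r of Mmp14 with Timp2 from 0.89 to 0.61 and with Mmp2 from 0.86 to 0.60. S100GFP+ libraries 14, 17 and 22 overlapped the other 5 in the levels of all 3 genes, and the remaining 5 libraries are too few for a correlation. Library 14 held the highest level of all 3 genes and the highest fibroblast sum of the S100GFP+ libraries. Fibroblast markers also varied between libraries, in NG2DsRed+ cells from a sum of 1714 in library 2 to 12321 in library 28. These held the lowest and highest levels of all 3 genes in their type. In PSC libraries 4, 12, 20 and 36 Lars2, Gm23935 and Gm15564 took 3.64% to 9.66% of counts, against 17.8% to 36.6% in the other PSC libraries. Mmp2 was at 349 to 367 CPM in the first and 446 to 703 in the others, and Mmp14 at 139 to 161 and 163 to 188. The part of fibroblast RNA or of this share in these relations was not tested.

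**Figure D5:**
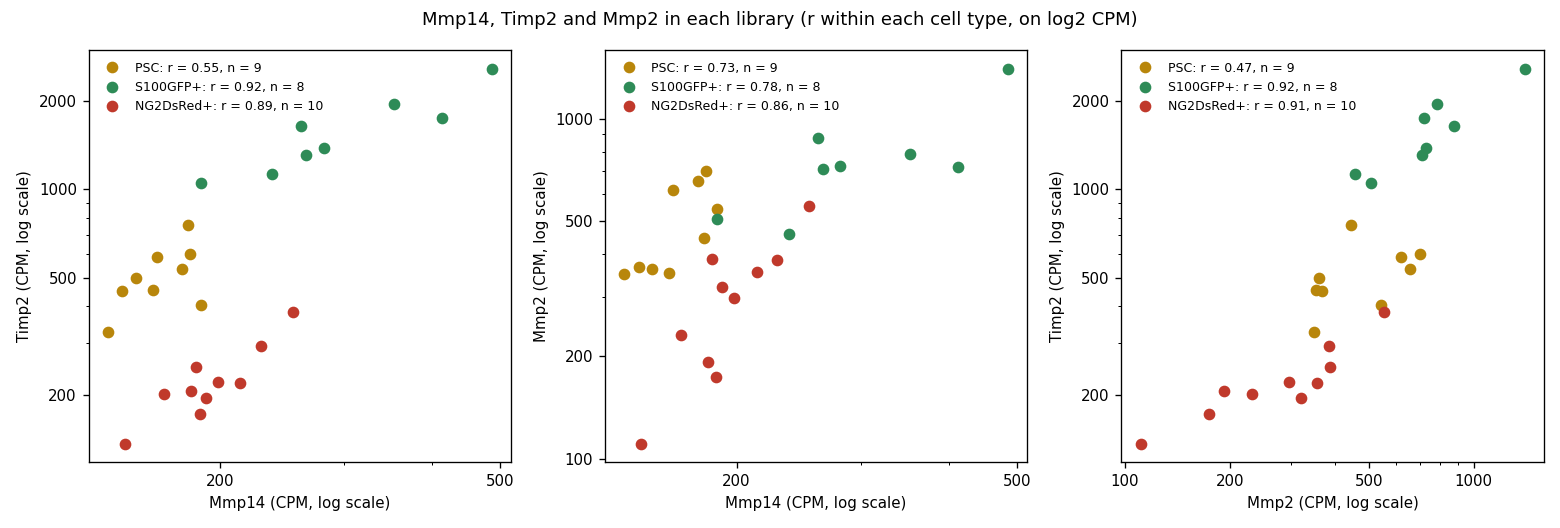
Levels of Mmp14, Timp2 and Mmp2 in each library, in CPM on log axes, with r of log2 CPM within 9 PSC, 8 S100GFP+ and 10 NG2DsRed+ libraries. The points of each cell type form their own band, and r ranges from 0.47 for Mmp2 and Timp2 in PSCs to 0.92 in S100GFP+ cells.

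Of the 17 further Mmp genes 7 passed the filter. In PSCs 1 was higher and 6 were lower than in S100GFP+ cells, and 1 was higher and 3 were lower than in NG2DsRed+ cells, where 47.0% and 44.0% of all genes passed. The 6 include Mmp12 and Mmp27, which the filter kept for their S100GFP+ counts. The higher one was in both comparisons Mmp16, another membrane-type enzyme, at 34.5 to 84.1 CPM in PSCs, 5.75 to 12.5 in S100GFP+ cells and 0.85 to 10.8 in NG2DsRed+ cells (log2 fold changes 2.86, adjusted p = 4.9e-08, and 3.57, adjusted p = 3.2e-10). Every PSC library was above every other library, as for Mmp15 and Mmp17. Mmp23, an enzyme with a transmembrane segment at its amino end, was at 72.1 to 178 CPM in S100GFP+ cells, 1.42 to 23.1 in NG2DsRed+ cells and 0.16 to 0.95 in PSCs, without overlap (PSCs minus S100GFP+ cells -7.78, adjusted p = 6.5e-13, and minus NG2DsRed+ cells -3.96, adjusted p = 6.5e-08). Mmp11 (-0.94 and -1.85) and Mmp28 (-2.46 and -2.39) were lower in PSCs in both comparisons, and Mmp19 (-2.44) only passed against S100GFP+ cells, a difference from the NG2DsRed+ comparison that was not tested. Mmp23 and Mmp28 passed the filter only with libraries of the other types, so that no support is drawn from their being lower in PSCs. Mmp19 shares 789 exon bases (22.3%) with Tmem198b on the opposite strand.

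In the lists that follow, the shares to read the counts against are 22.9% of all genes higher and 24.1% lower in PSCs than in S100GFP+ cells, and 20.9% higher and 23.1% lower than in NG2DsRed+ cells. Among 14 genes that activate, carry or clear matrix metalloproteinases, 13 were tested, and 1 was higher and 7 lower in PSCs than in S100GFP+ cells and 1 higher and 5 lower than in NG2DsRed+ cells, with medians of -1.07 and -0.54. Tfpi2, an inhibitor of serine proteases, was lower in both (-4.41 and -3.06), as were Spock2, a matrix proteoglycan (-3.79 and -3.05), and Pcsk5, a proprotein convertase of the furin family (-3.06 and -1.41). Tfpi2 and Spock2 passed the filter only with libraries of the other types, so that no support is drawn from their being lower in PSCs. Of 8 tested proteolytic Adam genes 2 were higher and 5 lower than in S100GFP+ cells and 2 higher and 4 lower than in NG2DsRed+ cells, with medians of -1.18 and -0.77. Adam12, a metalloprotease with a disintegrin domain, was at 55.5 to 260 CPM in PSCs and at most 21.8 CPM in any other library (3.64 and 4.45), whereas Adam15 (-2.002 and -1.93) and Adam33 (-3.44 and -1.90) were lower. Of 17 tested Adamts genes, secreted relatives that cut proteoglycans and procollagens, 2 were higher and 8 lower than in S100GFP+ cells and 2 higher and 10 lower than in NG2DsRed+ cells, with medians of -0.70 and -0.79. Adamts20 was higher in PSCs in both (2.75 and 4.80), and Adamts19 (-5.14 and -3.25) and Adamts14 (-2.69 and -2.92) were lower. Adamts19 had 13 counts in PSCs and passed the filter only with its S100GFP+ libraries, and Adamts14 passed it only with libraries of the other types. No support is therefore drawn from their being lower in PSCs.

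Of 16 substrates of these enzymes in the matrix and at the cell surface, 5 were higher and 8 lower in PSCs than in S100GFP+ cells, and 3 higher and 10 lower than in NG2DsRed+ cells, with medians of -0.46 and -1.07, where 47.0% and 44.0% of all genes passed. Dag1, which encodes the laminin receptor dystroglycan, was at 2287 to 3656 CPM in PSCs and at no more than 428 CPM elsewhere (3.40 and 3.03). Fn1, the gene of fibronectin, was at 17.5 to 183 CPM in PSCs and 2365 to 6199 CPM in S100GFP+ cells (-6.07, and -3.05 against NG2DsRed+ cells), and Col3a1, a fibrillar collagen, was also lower in both (-4.60 and -2.58). Agrn, the MMP3 substrate of the synaptic basal lamina, was named after its values were seen. It ranged from 148 to 392.5 CPM in PSCs, from 86.4 to 173 in NG2DsRed+ cells and from 20.2 to 91.3 in S100GFP+ cells, and was higher in PSCs in both comparisons (2.95, adjusted p = 1.2e-09, and 1.11, adjusted p = 0.00063). Agrn was lower in S100GFP+ than in NG2DsRed+ cells (-1.84, adjusted p = 3.9e-06), the reverse of the order of Mmp3 between these 2 populations. The list went both ways in this comparison, with 7 of the 16 substrates higher and 5 lower in S100GFP+ cells, beside 18.1% and 15.2% of all genes.

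The genes most like each of the 10 were taken by Pearson r of log2 CPM over all 27 libraries, as a description in which all genes share libraries and differences between cell types. Mmp17 was most like Cpm, Ajap1 and Serpine2 (r = 0.98, 0.97 and 0.96), Mmp15 like Spata13, Map2 and 2010111I01Rik (0.95, 0.95 and 0.94) and Mmp3 like Serpina3c, Il1rl1 and Slc9a4 (0.98 each). Timp2 was most like Antxr2, Sema3c and Metrnl (0.96, 0.96 and 0.95), Timp4 like Gpihbp1, Adgrl4 and Afap1l1 (0.97, 0.95 and 0.95) and Mmp14 like Islr, Ctsk and Col5a1 (0.92, 0.90 and 0.90). For Timp1 they were Slc41a2, Thbs3 and Fn1 (0.92, 0.91 and 0.89), for Mmp2 Vldlr, Cd276 and Sh3pxd2b (0.90, 0.89 and 0.89), for Timp3 Scarb1, Lzts2 and Crk (0.90, 0.89 and 0.89) and for Mmp9 Nfkbia, Muc13 and Pfkp (0.88, 0.88 and 0.86).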

How the data were processed

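RNA-seq of sorted muscle cells was analysed as deposited: whole-number counts per gene that the authors made by trimming reads with ea-utils and Btrim, aligning them with HISAT2 (GRCm38, per the submitters' processing notes) and counting with HTSeq, without normalization. Versions, annotation and strand setting were not given in the sources used here. A column was tied to a sample through the library number in its title, and 27 of 36 labelled libraries were analysed here. Of 109 replicate pairs, 0 were identical or within sampling noise. PCR copies cannot be told from molecules, so that intervals on counts cover counting error only.

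Differences came from edgeR 4.0.16 in R 4.3.3, with TMM scaling, filterByExpr (minimum count 10), a shared quasi-likelihood fit of all 3 cell types over 15330 genes, and Benjamini-Hochberg adjustment at 0.05 over all of them. Log2 CPM used a prior count of 2. Genes were matched to GENCODE M21 (99.56% of identifiers), and RPKM used the union of exons. The fit was tested on simulated counts. Correlations used scipy 1.17.1, with exact permutation under 10 libraries and 100000 permutations otherwise.

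The 10 genes and the further lists were chosen with earlier results of these data known. Named are the 10 genes, other Mmp genes past the threshold, up to 3 genes per further list past it in both PSC comparisons with the largest smaller change, the synapsin genes, and the 3 genes most like each of the 10. Agrn and untested neighbours of Mmp3 were named after their values were seen. Alternatives were DESeq2 1.42.0, its size factors, no filter, only the cell types compared, limma-voom with sample quality weights (limma 3.58.1), leaving out S100GFP+ libraries 14, 17 and 22, a term for the share taken by Lars2, Gm23935 and Gm15564, and leaving out each library in turn.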

Additional observations from a re-analysis of the deposited data

Results flagged for a closer look

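Of 30 sets of values (10 genes in 3 cell types), 5 had a library far from the others of its type by Dixon's test of the gap to the nearest library. Its rate of about 5% by chance holds for normally distributed values, and CPM were used without a log. The number flagged is therefore a description only. Timp1 in PSC library 31 was at 19.3 CPM with the next library at 1.18, and that library also held the highest tendon and cartilage marker sum. Mmp17 in PSC library 18 was at 170.5 CPM with the next at 112. Mmp2 in S100GFP+ library 14 was at 1399 CPM with the next at 875, and that library held the highest fibroblast sum of its type. Mmp9 in NG2DsRed+ library 2 was at 3.97 CPM with the next at 2.10, and that library held the highest neutrophil sum. Mmp9 in PSC library 6 was at 0.101 CPM, which is 1 count, with the others at 0, so that this flag was fixed by the zeros.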

How the results depend on the processing

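No paired analysis was possible because the cell types share no library number in the labels, which do not name the mouse. Libraries of different cell types may therefore come from the same mouse, and the fits treated them as independent. Of 30 differences of single genes, 21 kept their direction and their side of the threshold in every fit run. The number of the 10 genes lower in PSCs than in NG2DsRed+ cells was 4, and it was 2 in fits of only the cell types compared and between 2 and 4 when single libraries were left out, with 2 without NG2DsRed+ library 2, where Mmp9 no longer passed the filter and Mmp3 lost its call. The other counts stayed within 1.5 times. Timp4 in PSCs against S100GFP+ cells turned from -0.70 to 1.72 (adjusted p = 0.064) in limma-voom with sample quality weights, 2.75 without libraries 14, 17 and 22, 0.14 with the share of Lars2, Gm23935 and Gm15564 as a term and 0.14 without library 17, with -0.89 as the lowest without a single library. Timp3 in the same comparison turned from -0.13 to 0.43, 0.44 and 0.014 in the last 3 of these fits, with -0.25 as the lowest without a single library, and passed in none of them. Further calls that the same weighted limma-voom fit added were Timp1 in PSCs against NG2DsRed+ cells (-1.95, adjusted p = 0.0016), Mmp9 (1.85, 0.0064) and Timp4 (-3.96, 2.3e-05) in S100GFP+ against NG2DsRed+ cells, and without library 17 the last was -2.13 (adjusted p = 0.024). Timp4 in PSCs against NG2DsRed+ cells lost its call with the share term (-1.48, adjusted p = 0.11). The r of Mmp14 and Mmp2 in PSCs was 0.68 with DESeq2 size factors (adjusted p = 0.062). Without the filter the median log2 fold change of all genes moved to -0.97 for PSCs against S100GFP+ cells and 0.78 for S100GFP+ against NG2DsRed+ cells, over 44705 genes, and without libraries 14, 17 and 22 to 0.16 in the first. The causes were not tested. Mmp9 was tested without 24 of the 27 single libraries, since it missed the filter otherwise. Genes with few counts, Mmp9 and Mmp3 outside S100GFP+ cells, are limited by depth.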
